A study of Mus musculus with 11 samples.

Results

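The Schwann cell and myelin genes Mbp, Pmp22, Prx, Mag, Egr2, S100b and Ncam1 were followed in bulk RNA sequencing of neonatal mouse skin. These 7 of the 49315 genes in the count table were chosen by name, as familiar markers of myelinating and other Schwann cells, with no threshold on a measured value. All 7 passed the filter on low counts, as did 18375 genes in all. The skin came from 11 Foxp3-DTR mice of both sexes on a C57BL/6J background, in which Foxp3-expressing regulatory T cells (Tregs) carry the diphtheria toxin (DT) receptor, so that an injection of DT removes them. All groups, controls included, carry this transgene, which the Foxp3 promoter drives. The ΔETreg group (EarlyDT in the labels, n = 3) received 2 doses of DT at 30 ng per g on P6 and P8 and was harvested on P9. The ΔLTreg group (LateDT, n = 3) received 2 doses on P10 and P12, the ΔTreg group (FullDT, n = 3) received 4 doses from P6 to P12, and both were harvested on P13. Control mice (n = 2) received PBS and remained Treg-sufficient. The day on which control mice were harvested is not in the labels, so that age and treatment cannot be told apart in any comparison with control, nor between ΔETreg mice and the groups harvested on P13. The words rose and fell against control hold with this limit throughout. The labels name no pooling of mice, and each library was taken as 1 mouse, so that p-values measure the spread between mice.

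Schwann cells are the glia of peripheral nerve. In skin, myelinating Schwann cells wrap the larger sensory axons, while non-myelinating Schwann cells ensheath bundles of fine fibres, cover touch end organs and surround the nerves that run around hair follicles. Myelin is a spiral of Schwann cell membrane that is held together by a small set of very abundant proteins, and the transcription factors SOX10 and EGR2 switch on the genes for these proteins together during early postnatal life.

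The genes fall into 3 roles. Mbp encodes myelin basic protein, which binds the inner faces of the membrane together, and Pmp22 encodes peripheral myelin protein 22, a membrane protein of compact myelin that is also made outside nerve. Prx encodes periaxin, a scaffold of the outer Schwann cell membrane, and Mag encodes myelin-associated glycoprotein, an adhesion protein of the membrane that faces the axon. Egr2, also called Krox20, encodes the zinc finger factor that drives myelination and is also an early response gene of activated T cells and other cells. S100b encodes a calcium-binding protein of glia that adipocytes, melanocytes and some antigen-presenting cells also make. Ncam1 encodes a cell adhesion molecule of non-myelinating Schwann cells, neurons, developing muscle and the hair follicle mesenchyme.

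Positions are from the GENCODE M21 annotation of GRCm38, the build of the counts. Pmp22 lies on chromosome 11 (63128982 to 63159547, plus strand) and Prx on chromosome 7 (27499324 to 27520214, plus strand). Mag lies on chromosome 7 as well (30899176 to 30914873, minus strand). Egr2 and S100b both lie on chromosome 10 (67535475 to 67542188 and 76253853 to 76261159, plus strand), and Ncam1 lies on chromosome 9 (49502136 to 49798925, minus strand). All 7 are protein-coding, and the counts are of reads on their exons. Prx shares 300 of its exon bases (5.38%) with the antisense gene Gm15541, which held 15 to 36 counts per library, and Ncam1 shares 417 (4.81%) with the antisense gene Gm11149, which held 0 to 3 counts. The sources used here do not state whether the counting used strand.

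Of the 7 genes, 5 had a promoter window of 300 bases among the RefSeq windows on GRCm38.p6 that were searched, which are a part of that set. Each window runs from 250 bases before to 50 bases after an annotated start. Windows of Prx, Mag and Pmp22, which moved together from library to library, are shown beside one of Egr2, which did not move with them. Capitals mark matches to any of 5 short motifs searched on both strands, which were the CArG box (the site of serum response factor), GCGNGGGCG (an EGR site), ACAAAG (a SOX site), CCAAT and TATAAA. The marked matches do not overlap each other, and the CArG box reads on both strands.
Prx (chr7:27499074-27499373, plus strand): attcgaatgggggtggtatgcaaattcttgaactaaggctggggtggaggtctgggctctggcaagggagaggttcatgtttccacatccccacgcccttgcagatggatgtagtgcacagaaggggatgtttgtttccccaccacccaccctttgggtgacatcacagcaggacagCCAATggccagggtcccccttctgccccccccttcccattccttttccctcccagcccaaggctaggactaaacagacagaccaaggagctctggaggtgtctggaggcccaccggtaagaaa
Mag (chr7:30914814-30915113, minus strand): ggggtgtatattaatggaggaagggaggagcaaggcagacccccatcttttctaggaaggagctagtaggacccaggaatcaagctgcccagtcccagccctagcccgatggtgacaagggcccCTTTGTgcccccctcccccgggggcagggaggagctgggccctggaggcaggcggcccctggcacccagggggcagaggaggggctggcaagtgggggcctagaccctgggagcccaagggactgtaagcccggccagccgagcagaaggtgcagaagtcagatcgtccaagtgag
Pmp22 (chr11:63128732-63129031, plus strand): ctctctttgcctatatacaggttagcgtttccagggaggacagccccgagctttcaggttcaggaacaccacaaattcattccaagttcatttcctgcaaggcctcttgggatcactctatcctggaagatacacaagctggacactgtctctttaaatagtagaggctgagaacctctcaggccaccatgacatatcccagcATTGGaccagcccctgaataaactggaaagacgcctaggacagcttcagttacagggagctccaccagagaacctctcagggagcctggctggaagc
Egr2 (chr10:67537619-67537918, plus strand): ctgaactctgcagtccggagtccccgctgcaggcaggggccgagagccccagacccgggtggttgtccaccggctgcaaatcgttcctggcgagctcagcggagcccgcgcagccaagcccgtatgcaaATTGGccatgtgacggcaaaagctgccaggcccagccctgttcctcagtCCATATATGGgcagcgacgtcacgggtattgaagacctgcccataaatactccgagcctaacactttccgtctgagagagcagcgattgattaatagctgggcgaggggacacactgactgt

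The Egr2 window held a CArG box 72 to 63 bases before the start, and 4 of its 5 annotated windows held one. The windows that start at 67537619, 67537620 and 67537680 overlap and hold the same box, so these are not separate sites. Of the 32851 windows searched, overlapping ones included, 1.63% held a CArG box. The Mag window held ACAAAG on the opposite strand, 126 to 121 bases before the start, against 18.7% of all windows. Among the windows shown, CCAAT was found in those of Prx, Pmp22 and Egr2, and it was in 37.4% of all windows. Other windows of Mag and the window of S100b, which are not shown, held CCAAT too. Neither GCGNGGGCG, which 5.55% of all windows held, nor TATAAA, which 13.6% held, was found in any window of the 5 genes. A match describes the letters of the window and says nothing of binding there.

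The libraries held between 23377571 and 34159435 counts. Values are CPM (counts scaled to a common library total) on library sizes scaled by the trimmed mean of M-values (TMM), and differences are log2 fold changes ± SE from edgeR's quasi-likelihood test on all 11 libraries, with Benjamini-Hochberg adjustment over 18375 genes. A gene is said to rise or fall where its adjusted p is under 0.05. Foxp3, the gene of the depleted cells, was near the floor of detection in every group, with 14 and 20 counts in the controls, 10 to 16 in the ΔETreg mice, 13 to 23 in the ΔLTreg mice and 9 to 19 in ΔTreg skin, none of its differences passed the test, and it gave no firm check of the labels. Markers of peripheral nerve were well above the floor. Mbp had a median of 57.9 CPM and Sox10 of 29.9 CPM, while Mog and Mobp, which are particular to the myelin of the brain and spinal cord, had at most 3 counts in any library. Nefl, Snap25 and Prrxl1, transcripts of the neuron, were at 3 counts or fewer too.

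A single library stood apart for these genes and must be described before the comparisons. In ΔETreg mouse 1, Mbp was at 2.14 times the highest value of the other 10 libraries, Mag at 1.95, Prx at 1.56 and Pmp22 at 1.54 times. Of 14968 genes with a mean of at least 1 CPM, 10 exceeded the highest of the other libraries by 1.5 times or more in this mouse. These 10 included the 4 genes above and 5 of the 17 other myelin genes at this level, among them Ugt8a (2.66 times), Cldn19 (2.1), Ncmap (1.64) and Drp2 (1.55). The tenth was Dusp15 (1.69). In each of the other 10 libraries, 0 of the 7 genes and 0 of the 17 myelin genes passed this limit, although up to 42 genes of other kinds did.

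The other Schwann cell genes named here did not pass this limit in bulk skin. Egr2 in this mouse was at 0.689, S100b at 0.6 and Ncam1 at 0.787 times the highest of the other 10 libraries. Sox10 was at 0.996 times, the neuregulin receptor Erbb3 at 0.87 times and Pou3f1, a factor of Schwann cells about to myelinate, at 0.902 times. Against the mean of the other ΔETreg mice, Egr2 was at 0.897, S100b at 0.964 and Ncam1 at 0.848 times. Egr2, S100b and Ncam1 are also made outside nerve, and Erbb3 (199 CPM) and Pou3f1 (108 CPM) stood far above Sox10 (31.7 CPM) here. An excess confined to Schwann cells could go unseen in such genes, and the source of their reads was not tested. Many results that involve ΔETreg skin are therefore given with and without this mouse, and those given once include it.

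**Figure D1:**
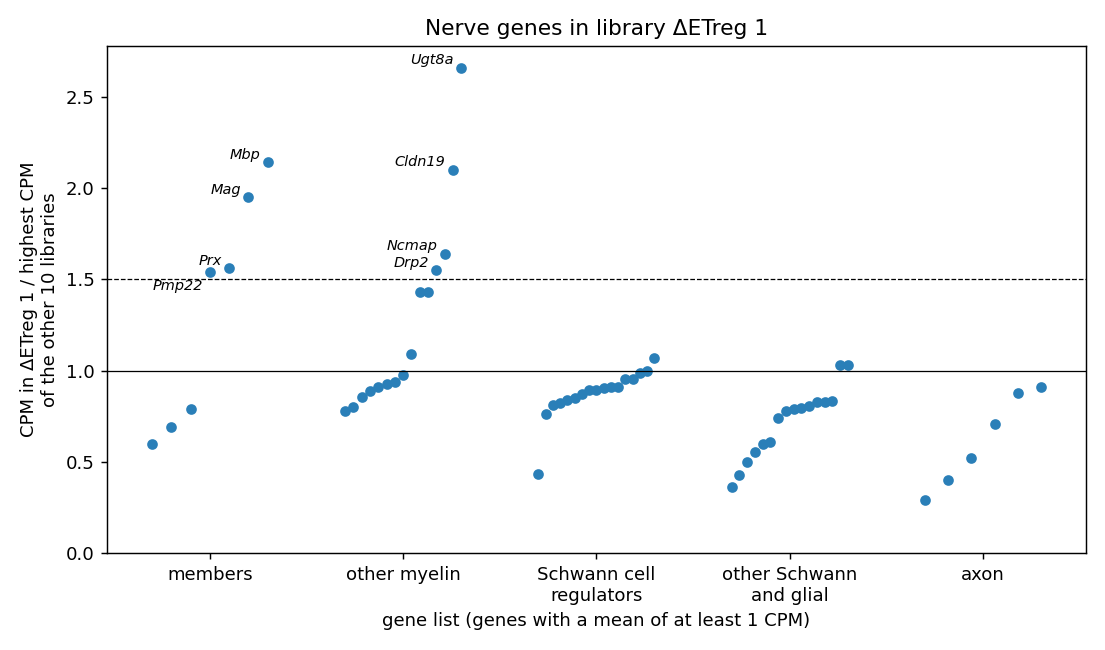
CPM in the library of ΔETreg mouse 1 divided by the highest CPM of the other 10 libraries (vertical axis), for genes of 5 nerve lists with a mean of at least 1 CPM (horizontal axis), 1 point per gene, ordered within a list. The solid line marks 1 and the dashed line 1.5: 4 of the 7 members and 4 of the other myelin genes drawn lie above the dashed line, and no regulator, other Schwann cell or axon gene does.

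Levels of the 7 genes relative to each other were compared per kb of exon. The median over the 11 libraries was 39.7 CPM per kb for Egr2 and 35.5 for Pmp22, and these lay well above Mbp at 6.83 and Prx at 6.16. S100b followed at 3.18, Ncam1 at 2.14 and Mag at 0.597 CPM per kb. The ranges over libraries overlapped between Egr2 (32.1 to 49.0) and Pmp22 (30.6 to 66.8) and between Mbp (5.57 to 17.0) and Prx (4.24 to 12.6), so the order within these pairs was not beyond the spread. The range of S100b (2.08 to 5.28) overlapped those of Prx and Ncam1 (1.22 to 2.72), and that of Ncam1 overlapped that of Mag (0.41 to 1.5).

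**Figure D2:**
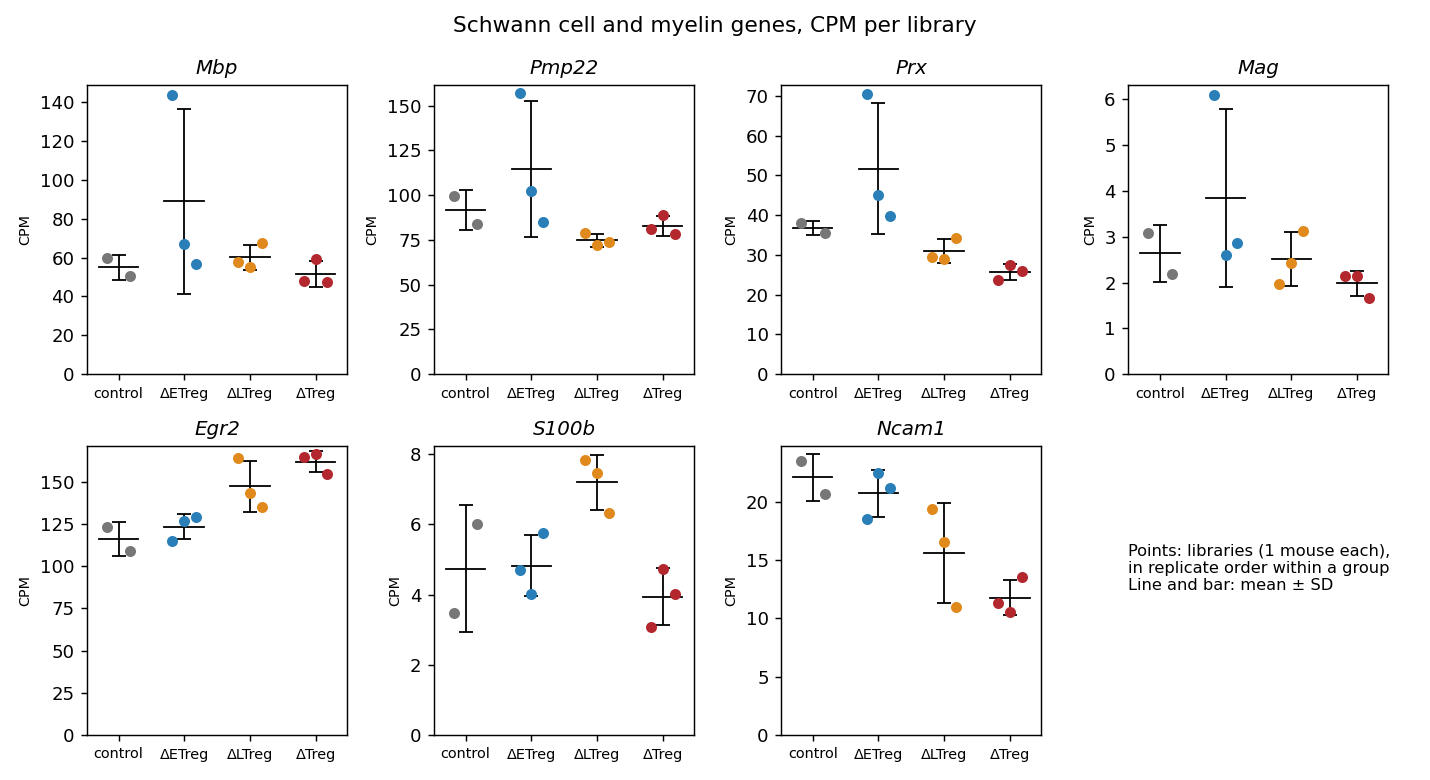
CPM (vertical axes, from 0) of each of the 7 genes by group (horizontal axes), with 1 point per mouse in replicate order and the mean ± SD of each group (n = 2 control, n = 3 in the others). The first ΔETreg mouse lies far above all others for Mbp, Pmp22, Prx and Mag, the 3 ΔTreg mice are the highest or among the highest for Egr2 and low for Ncam1, and the 3 ΔLTreg mice are the highest for S100b.

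The proteins of compact myelin, Mbp and Pmp22, did not pass the test in any of the 6 comparisons of groups. Mbp was at 59.5 and 50.3 CPM in the controls, 144, 66.8 and 56.6 in the ΔETreg mice, 57.9, 55.2 and 67.3 in the ΔLTreg mice and 47.8, 59.4 and 47.2 in ΔTreg skin. Apart from ΔETreg mouse 1, all libraries lay between 47.2 and 67.3 CPM and the groups overlapped. The log2 fold change of ΔTreg against control was −0.09 ± 0.31 (adjusted p = 0.866), and that of ΔETreg against control was 0.70 ± 0.32 (adjusted p = 1) with all mice and 0.17 without ΔETreg mouse 1. ΔTreg against ΔETreg was −0.79 ± 0.28 (adjusted p = 0.0642), or −0.26 without that mouse. The same comparison passed the test without ΔETreg mouse 2 (adjusted p = 0.0486) or mouse 3 (adjusted p = 0.0184).

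Pmp22 was at 99.7 and 83.7 CPM in the controls, 157, 102 and 84.8 in the ΔETreg mice, 78.7, 72.1 and 73.5 in the ΔLTreg mice and 80.8, 88.7 and 78.2 in ΔTreg skin. The 3 ΔLTreg mice were below both control mice and all ΔETreg mice, and the ΔTreg mice overlapped with every group. ΔLTreg against control was −0.29 ± 0.20 (adjusted p = 0.451). ΔETreg against ΔLTreg was 0.62 ± 0.18 (adjusted p = 0.0642) and 0.33 without ΔETreg mouse 1 (adjusted p = 0.1).

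The adhesion and scaffold proteins of the sheath gave 1 gene that changed. Prx was at 38.1 and 35.6 CPM in the controls, 70.5, 45.1 and 39.7 in the ΔETreg mice, 29.6, 29.0 and 34.3 in the ΔLTreg mice and 23.7, 27.4 and 26.1 in ΔTreg skin. The 4 groups did not overlap at all, with ΔETreg the highest, then control, then ΔLTreg, and ΔTreg the lowest. Prx fell in ΔTreg relative to ΔETreg skin, by 1.01 ± 0.18 on the log2 scale (adjusted p = 0.00165), and by 0.72 without ΔETreg mouse 1 (adjusted p = 0.00068). It was higher in ΔETreg than in ΔLTreg skin by 0.74 ± 0.17 (adjusted p = 0.031), and by 0.46 without that mouse (adjusted p = 0.0345). The ΔETreg and ΔLTreg groups differ in age at harvest as well as in the timing of DT. The call against ΔLTreg was lost without ΔETreg mouse 2 (adjusted p = 0.06), ΔLTreg mouse 1 (0.0742) or ΔLTreg mouse 2 (0.0805), and in a fit of the 6 libraries of these groups alone (0.0977).

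Against control, Prx was −0.52 ± 0.19 in ΔTreg skin (adjusted p = 0.0828), −0.25 ± 0.19 in ΔLTreg skin (adjusted p = 0.526) and 0.49 ± 0.20 in ΔETreg skin (adjusted p = 1). The value in ΔETreg skin was 0.21 without ΔETreg mouse 1. The difference of ΔTreg from control passed the test once ΔETreg mouse 1 was left out of the fit (−0.51, adjusted p = 0.00467) or ΔETreg mouse 3 was (adjusted p = 0.0485), and in a fit of the 5 libraries of these groups (adjusted p = 0.0038). Exon reads shared with the antisense gene were a small part, at 15 to 36 counts against 552 to 2023 for Prx.

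Mag had the lowest counts, 50 to 175 per library, and the widest errors. It was at 3.08 and 2.19 CPM in the controls, 6.09, 2.6 and 2.87 in the ΔETreg mice, 1.97, 2.43 and 3.13 in the ΔLTreg mice and 2.14, 2.14 and 1.67 in ΔTreg skin. The 3 ΔTreg mice were below both control mice and all ΔETreg mice, while ΔLTreg overlapped with every group. ΔTreg was −0.42 ± 0.37 against control (adjusted p = 0.459) and −0.97 ± 0.32 against ΔETreg (adjusted p = 0.0512). The second value was −0.46 without ΔETreg mouse 1 (adjusted p = 0.232), and it passed the test without ΔETreg mouse 2 (0.0276), ΔETreg mouse 3 (0.0443), ΔLTreg mouse 1 (0.048) or ΔLTreg mouse 3 (0.0434).

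Mbp, Pmp22, Prx and Mag moved together from mouse to mouse. After the group means were taken out, Pearson's r of log2 CPM over the 11 libraries was 0.98 between Mbp and Prx, 0.96 between Mbp and Pmp22 and 0.88 between Mbp and Mag. Without ΔETreg mouse 1 these were 0.94, 0.89 and 0.76, so that, within groups, mice with more Mbp also had more of the others. Egr2 (−0.39), S100b (−0.15) and Ncam1 (−0.43) did not follow Mbp in this way. The values share libraries and scaling, and are given as a description. Across all genes searched, with group differences kept in, those most like Mbp included Cldn19 (r = 0.96) and Ugt8a (0.96), and those most like Mag included Plekha4 (0.92) and Ugt8a (0.91). For Pmp22 they were Cldn19 (0.93), Kifc5b (0.91) and Rbm41 (0.91), and for Prx they included Depdc1a (0.94) and Gjc3 (0.93). In bulk skin, fewer Schwann cells or less nerve in a biopsy and less RNA per Schwann cell cannot be told apart.

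**Figure D3:**
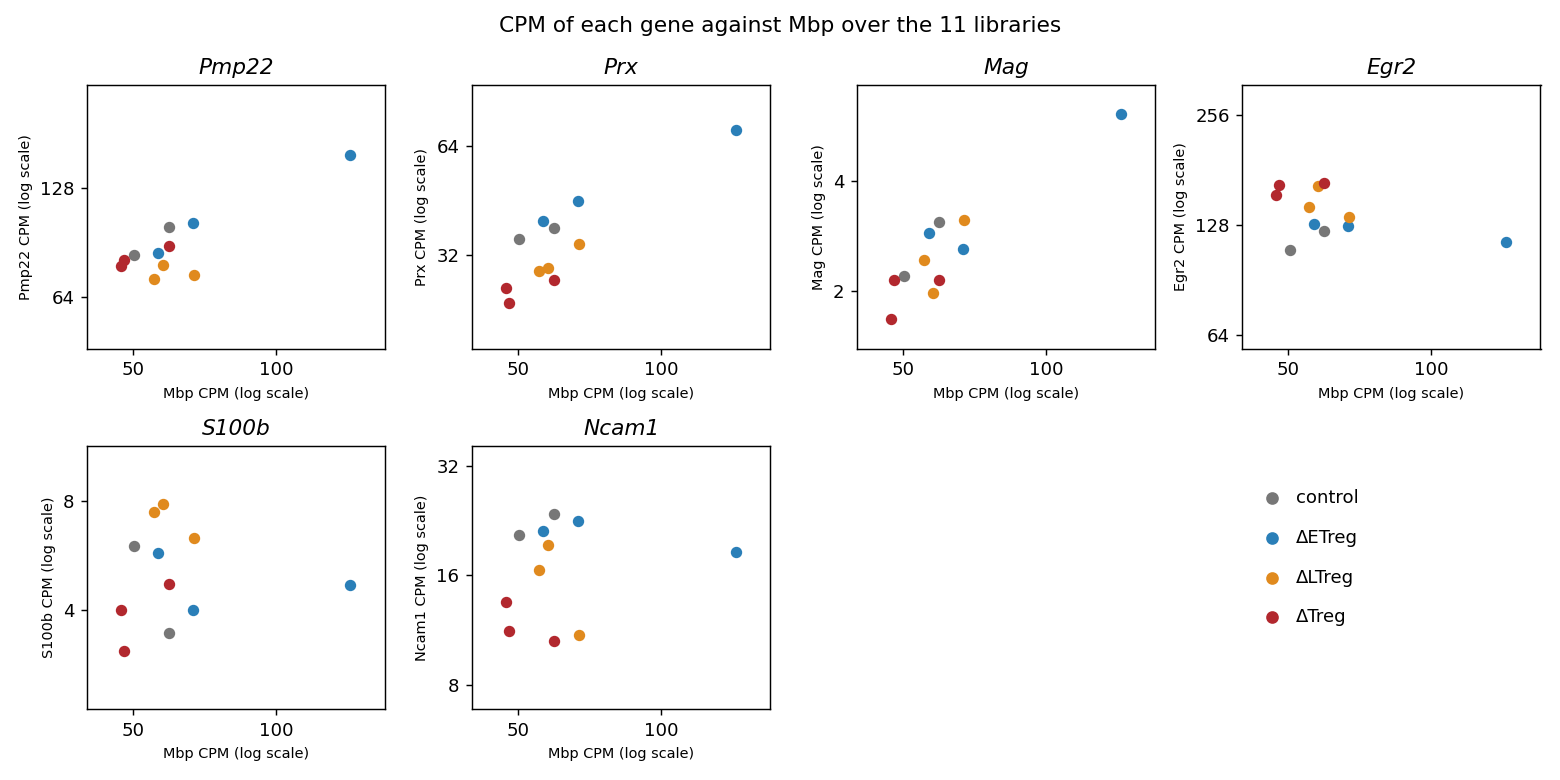
CPM of 6 of the genes (vertical axes, log scale) against CPM of Mbp (horizontal axes, log scale), 1 point per library, coloured by group. Prx and Mag rise with Mbp, also among the libraries other than ΔETreg mouse 1 at the far right, Pmp22 does so less clearly across groups (r = 0.33 without that mouse), and Egr2, S100b and Ncam1 do not.

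Egr2 rose in ΔTreg skin. It was at 123 and 109 CPM in the controls, 115, 127 and 129 in the ΔETreg mice, 164, 143 and 135 in the ΔLTreg mice and 164.5, 167 and 155 in ΔTreg skin. All 3 ΔTreg and all 3 ΔLTreg mice were above every control and ΔETreg mouse, and ΔTreg and ΔLTreg overlapped. The rise in ΔTreg skin was 0.48 ± 0.089 on the log2 scale against control (1.39-fold, adjusted p = 0.00296) and 0.39 ± 0.078 against ΔETreg (1.31-fold, adjusted p = 0.00406). Without ΔETreg mouse 1 the adjusted p-values were 0.0029 and 0.0182. ΔLTreg against control, 0.34 ± 0.088, missed the threshold at an adjusted p of 0.0526, and passed the test without ΔLTreg mouse 3 (0.0257), with DESeq2's size factors (0.0486) and when each library had to hold at least 10 counts (0.0477).

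Mbp, Pmp22, Prx and Mag did not rise with Egr2 in ΔTreg skin. Bulk skin does not show which cells made Egr2, and whether it rose in Schwann cells was not tested. In the same ΔTreg libraries Mbp, Pmp22, Prx and Mag had log2 fold changes against control between −0.52 and −0.09, and none passed the test. The EGR corepressor Nab2 had 84.6 to 93.2 CPM in ΔTreg and 84.7 and 86.0 in control skin, so that its groups overlapped. Of 12 listed immediate early genes, 5 rose and 0 fell in ΔTreg against control by edgeR's test, where 12.1% of all genes rose, and DESeq2 called 9. The 5 included Atf3, Junb and Zfp36, with log2 fold changes of 1.55 ± 0.17, 0.47 ± 0.073 and 0.66 ± 0.12 (adjusted p = 0.00011, 0.00105 and 0.00242). The list median was 0.53 where the median of all genes was −0.01. Their summed level was 1381 to 1449 CPM in ΔTreg and 1041 to 1107 CPM in control skin, and 1125 to 1480 in ΔLTreg.

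Markers of T cells and NK cells rose in ΔTreg skin as well, 14 of 14, from a summed level of between 12.6 and 14.7 CPM in control to one of between 90.5 and 107 CPM, Gzmb, Cd8a and Cd8b1 among them. Those of macrophages and monocytes rose in 5 of 10, from a summed level of between 180.5 and 245 CPM in control to one of between 433 and 599 CPM, Itgam, Mrc1 and Cd163 among them. Of all genes, 12.1% rose in this comparison. In ΔLTreg skin, where Egr2 was also above every control value, the T cell list was at 15.5 to 18.8 CPM. Against control, 0 of its 14 genes passed edgeR's test there, and DESeq2 called 0. At an unadjusted p under 0.05 there were 2, beside 3715 of all 18375 genes. The part of these immune cells in the Egr2 level was not tested. The genes most like Egr2 over the 11 libraries, among 14961 with a mean of at least 1 CPM, were Zfp36, which encodes an mRNA decay factor, with r = 0.98, the sphingosine kinase gene Sphk1, also with 0.98, and Fastk with 0.97.

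S100b was highest in ΔLTreg skin. It was at 3.47 and 6.01 CPM in the controls, 4.7, 4.01 and 5.74 in the ΔETreg mice, 7.84, 7.45 and 6.33 in the ΔLTreg mice and 3.09, 4.72 and 4.02 in ΔTreg skin, with 72 to 263 counts per library. The 3 ΔLTreg mice were above all 8 other mice, and the other groups overlapped. S100b was lower in ΔTreg than in ΔLTreg skin, both harvested on P13, by 0.86 ± 0.22 on the log2 scale (0.552-fold, adjusted p = 0.0194). The call was lost without ΔLTreg mouse 1 (adjusted p = 0.0532), ΔTreg mouse 1 (0.0767) or ΔTreg mouse 3 (0.0571). ΔLTreg against control, 0.61 ± 0.24, did not pass (adjusted p = 0.186), and the 2 control mice were far apart.

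Other cells that make S100b moved in part the same way between ΔTreg and ΔLTreg skin. Melanocyte genes did not do so in ΔLTreg against control. Adipocyte genes summed to 494 to 688 CPM in the ΔLTreg mice and 440 to 504 CPM in ΔTreg skin. Their list median was −1.28 in ΔTreg against ΔLTreg, where the median of all genes was 0. There, 1 of 10 fell by edgeR's test, where 6.11% of all genes fell, and DESeq2 called 6. At an unadjusted p under 0.05 there were 6, beside 5610 of all 18375 genes. Melanocyte genes fell in 10 of 12 in the same comparison. Their summed level was between 1444 and 1683 CPM in ΔLTreg and between 987 and 1028 CPM in ΔTreg. In ΔLTreg against control, 12 of 12 melanocyte genes and 2 of 10 adipocyte genes had a log2 fold change below 0, with 0 called in either list. In control skin the melanocyte genes summed to 1630 to 1897 CPM and the adipocyte genes to 458 to 602 CPM. The part of these cells in the S100b level was not tested. The genes most like S100b were S100a16 (r = 0.96), Gng13 (0.96) and Timm22 (0.95), which are not Schwann cell markers.

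Ncam1 fell in ΔTreg skin. It was at 23.5 and 20.7 CPM in the controls, 18.5, 22.5 and 21.2 in the ΔETreg mice, 19.4, 16.6 and 10.96 in the ΔLTreg mice and 11.3, 10.6 and 13.5 in ΔTreg skin. The 3 ΔTreg mice were below every control and ΔETreg mouse, and ΔLTreg mouse 3 was at the ΔTreg level while the other 2 ΔLTreg mice were not. ΔTreg was lower than control by 0.91 ± 0.20 on the log2 scale (0.533-fold, adjusted p = 0.00737) and than ΔETreg by 0.81 ± 0.18 (0.569-fold, adjusted p = 0.0069). Without ΔETreg mouse 1 the log2 fold changes were −0.90 (adjusted p = 0.00964) and −0.89 (0.0108). The fall against control was no longer past the threshold without control mouse 1 (adjusted p = 0.0505). ΔTreg against ΔLTreg was −0.41 ± 0.18 (adjusted p = 0.153), and −0.61 without ΔLTreg mouse 3 (adjusted p = 0.00721).

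Dermal papilla genes also fell in ΔTreg against control. Of 13 tested, 10 fell and 0 rose there, Fgf10, Corin and Hhip among those that fell. Of all genes, 9.39% fell and 12.1% rose in this comparison. The dermal papilla list gave these levels. Their summed level was 361 to 366 CPM in the controls, 345 to 360 in the ΔETreg mice and 298 to 318 in ΔTreg skin. In ΔLTreg mice 1, 2 and 3 it was 263.4, 309.5 and 315.5 CPM, the reverse of the order of Ncam1 in these mice. The list median was −0.02 in ΔTreg against ΔLTreg. Skeletal muscle genes, whose developing fibres also make Ncam1, summed to 1981 to 2000 CPM in control and 1961 to 3786 CPM in ΔTreg skin, where 1 of 16 rose and 2 fell by edgeR's test and DESeq2 called 6. The 2 that fell were Myh8 and Myh3, myosins of developing muscle (log2 fold changes −2.75 ± 0.34 and −2.43 ± 0.69, adjusted p = 0.000267 and 0.0282), and the one that rose was Myh4, a myosin of mature fast fibres (3.46 ± 0.72, adjusted p = 0.00624). The part of either tissue in the Ncam1 level was not tested. The genes most like Ncam1 over the 11 libraries were Osr2, Fam171a1 and Mfap2, with r of 0.98, 0.98 and 0.97. Of these, Mfap2 encodes a protein of elastic fibre microfibrils.

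**Figure D4:**
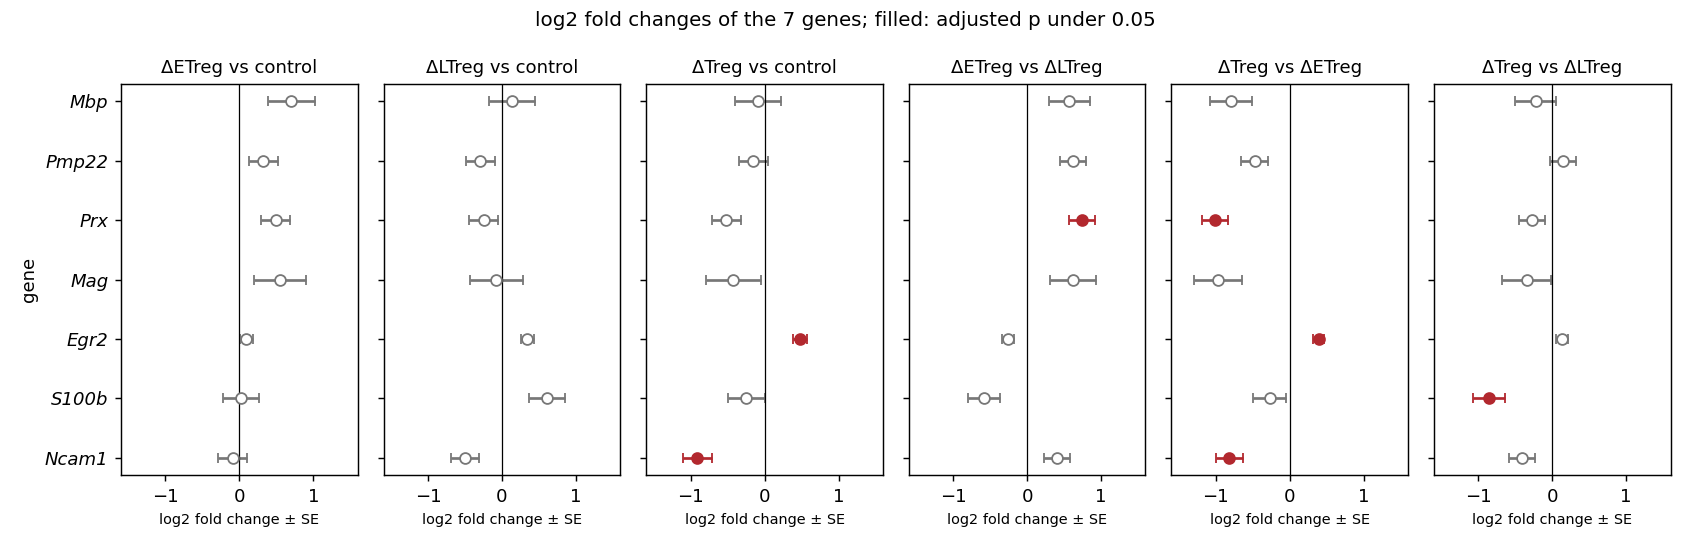
log2 fold change ± SE (horizontal axes) of the 7 genes (rows) in the 6 comparisons of groups (panels), from edgeR's fit to all 11 libraries, with filled red points where the adjusted p was under 0.05. Filled points are Egr2 (up) and Ncam1 (down) in ΔTreg against control, Prx in ΔETreg against ΔLTreg, Prx, Egr2 and Ncam1 in ΔTreg against ΔETreg, and S100b in ΔTreg against ΔLTreg.

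Counted over the 7 genes, ΔETreg against control gave 0 calls by edgeR's test where 0.00544% of all genes were called. At an unadjusted p under 0.05 there were 2, beside 872 of all 18375 genes, and DESeq2 gave 0. ΔLTreg against control also gave 0 calls where 4.55% of all genes were called, and 0 by DESeq2. There, 3 of the 7 had an unadjusted p under 0.05, beside 3715 of all 18375 genes. ΔTreg against control gave 2 of 7, 1 higher and 1 lower, where 21.5% of all genes were called, and 3 of 7 without ΔETreg mouse 1 (19.8% of all genes). Between the depleted groups, ΔTreg against ΔLTreg gave 1 of 7 (16.8% of all genes), ΔETreg against ΔLTreg 1 of 7 (6.38%) and ΔTreg against ΔETreg 3 of 7 (23.1%). The median log2 fold change of the 7 genes was 0.32 against control in ΔETreg skin, where that of ΔLTreg was −0.08 and that of ΔTreg −0.25, and 0.05 in ΔETreg without its first mouse. The comparisons with control share the same 2 control libraries.

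The other genes of the myelin sheath and its junctions were listed too. Of 22 listed, 20 were tested, and in ΔTreg against control 5 fell and 1 rose, with a list median of −0.18 against −0.01 for all genes. Of all genes tested, 9.39% fell and 12.1% rose in this comparison.

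Among the 5 genes that fell in ΔTreg skin, Gldn showed the smallest p. Gldn, which encodes gliomedin, the Schwann cell signal that gathers sodium channels at nodes, was at 7.99 and 8.68 CPM in the controls, 9.44, 8.31 and 7.75 in the ΔETreg mice, 5.33, 5.49 and 5.54 in the ΔLTreg mice and 3.86, 4.19 and 4.14 in ΔTreg skin. Its control, ΔLTreg and ΔTreg values did not overlap, and it fell in ΔLTreg (−0.61 ± 0.11, adjusted p = 0.0122) and further in ΔTreg skin (−1.03 ± 0.11, adjusted p = 9.8e-05). The call in ΔLTreg skin was lost without control mouse 2 (adjusted p = 0.0808) and in a fit of these groups alone (0.0996). Gal3st1, which sulphates galactolipids of myelin, fell by 0.64 ± 0.11 (adjusted p = 0.00161) and the tetraspanin gene Tspan2 by 0.83 ± 0.16 (adjusted p = 0.00323) in ΔTreg against control.

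Fa2h, the enzyme that makes hydroxylated fatty acids for both myelin and the skin surface, and Dag1, which encodes dystroglycan, also fell (log2 fold changes −0.55 and −0.22, adjusted p = 0.016 and 0.0495). In ΔETreg mouse 1 the 5 genes that fell were at 0.779 (Fa2h) to 1.09 (Gldn) times the highest of the other libraries. Mbp was at 2.14 times there. The part of cells outside nerve in these falls was not tested. Nfasc, the cell adhesion gene of nodes and paranodes, rose by 1.30 ± 0.36 (adjusted p = 0.0247) from 1.19 and 0.876 CPM in control to 3.43, 1.96 and 2.41 CPM. Without ΔETreg mouse 1, 4 fell and 1 rose, where 19.8% of all genes were called in either direction. In ΔTreg against ΔETreg 8 of 20 fell with all mice, where 9.81% of all genes fell. Without ΔETreg mouse 1, 4 of 20 fell, where 17.5% of all genes were called in either direction. In ΔETreg against control 0 of 20 passed edgeR's test, and DESeq2 called 0. At an unadjusted p under 0.05 by edgeR there were 7 of 20, beside 872 of all 18375 genes. The smallest p there belonged to Mal (0.50 ± 0.15) and Drp2 (0.62 ± 0.22), with adjusted p = 1 for both. Without ΔETreg mouse 1 their log2 fold changes were 0.3 and 0.34.

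**Figure D5:**
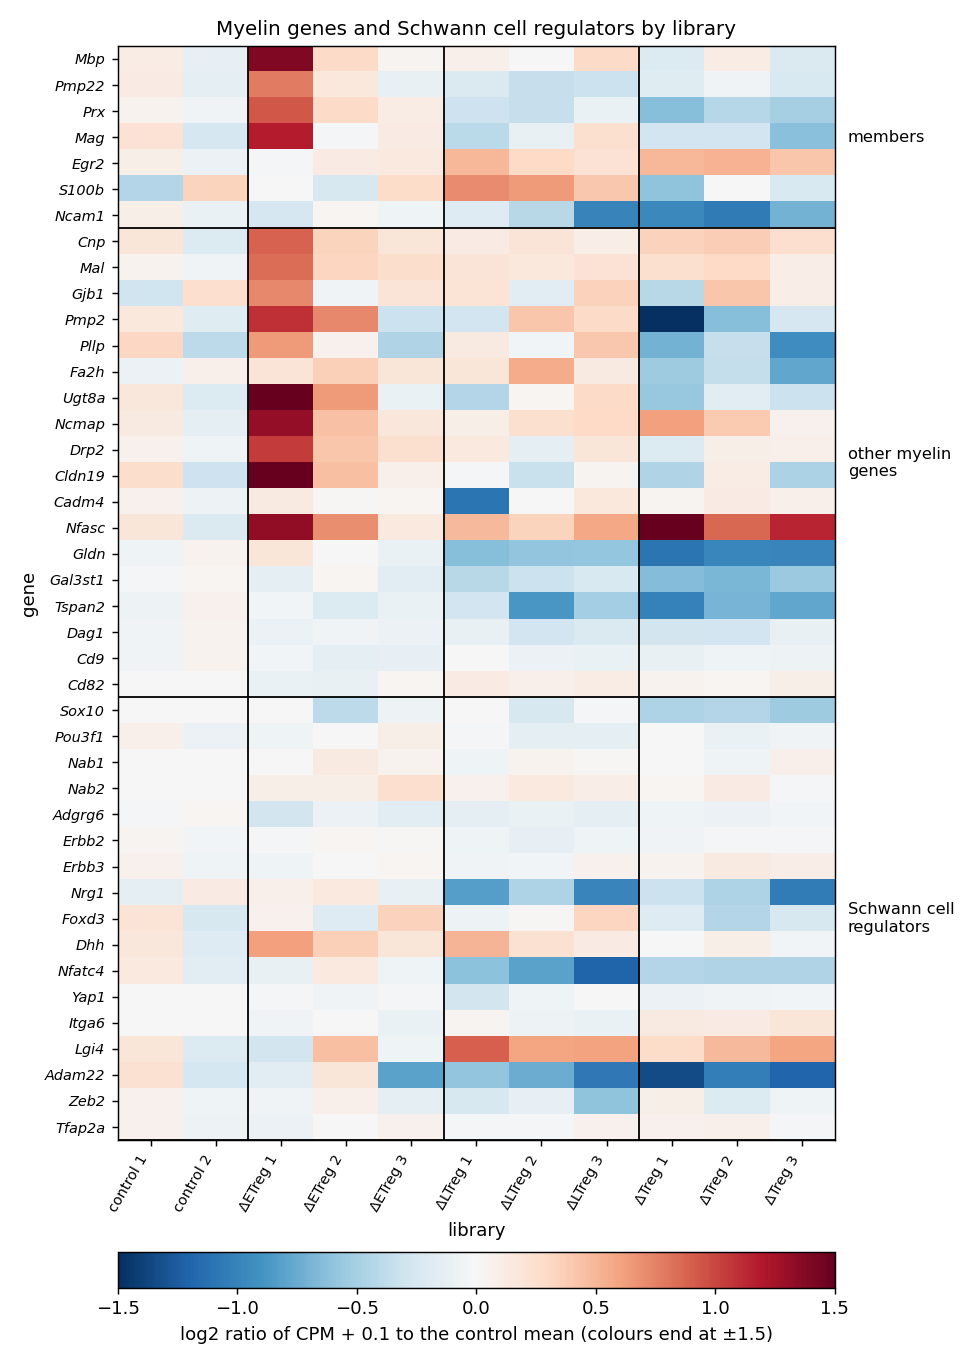
log2 ratio of CPM + 0.1 to the control mean (colour, ending at ±1.5) for the 7 genes, other myelin genes and Schwann cell regulators that were tested (rows) in each library (columns). ΔETreg mouse 1 is red for most myelin genes and near white for most regulators, and Gldn, Gal3st1 and Tspan2 are blue in all ΔTreg libraries.

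Sox10 fell in ΔTreg skin. It was at 31.45 and 31.9 CPM in the controls, 31.7, 24.1 and 29.9 in the ΔETreg mice, 31.7, 26.7 and 30.9 in the ΔLTreg mice and 22.85, 23.3 and 21.8 in ΔTreg skin. The 3 ΔTreg mice were below all 8 other mice. The log2 fold change was −0.48 ± 0.11 against control (adjusted p = 0.00922), −0.40 ± 0.10 against ΔLTreg (adjusted p = 0.0181) and −0.34 ± 0.10 against ΔETreg (adjusted p = 0.0304). The fall against control was lost without control mouse 2 (adjusted p = 0.0611). Sox10 also marks melanocytes, whose 12 listed genes held 11 that fell and 0 that rose in ΔTreg against control, Oca2, Trpm1 and Tyr among them. Of all genes, 9.39% fell there. The melanocyte list summed to 1630 to 1897 CPM in control and 987 to 1028 CPM in ΔTreg skin. The part of melanocytes in the Sox10 level was not tested.

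Of the 17 tested regulators and receptors of the Schwann cell lineage, 2 fell and 0 rose in ΔTreg against control, with a list median of −0.05, which is a smaller share than the 21.5% of all genes called there. The second was Adam22, which encodes a partner of the Schwann cell protein LGI4, at −1.23 ± 0.28 (adjusted p = 0.00915), a call that was lost without control mouse 1 (adjusted p = 0.082). In ΔLTreg against control 1 fell, the calcineurin-driven factor Nfatc4, by 0.86 ± 0.15 (adjusted p = 0.0109), and this call was lost without control mouse 1 (adjusted p = 0.0946) and in a fit of these groups alone (0.113). Nrg1, the axonal growth signal for Schwann cells, was at −0.77 ± 0.23 there (adjusted p = 0.0823). In ΔETreg against control 0 of 17 passed edgeR's test, and DESeq2 called 0. At an unadjusted p under 0.05 there were 2 (Adgrg6 and Nab2), beside 872 of all 18375 genes.

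Genes of immature, non-myelinating and repair Schwann cells changed in both directions in ΔTreg skin, where 3 of 19 rose and 5 fell, beside 12.1% and 9.39% of all genes. Ptprz1, a receptor phosphatase, was at 15.9 and 15.3 CPM in the controls, 16.3, 14.8 and 14.95 in the ΔETreg mice, 9.21, 7.68 and 8.45 in the ΔLTreg mice and 6.95, 7.16 and 6.65 in ΔTreg skin. Its ΔLTreg and ΔTreg values lay below every control and ΔETreg value, with falls of 0.88 ± 0.092 (adjusted p = 0.000848) and 1.17 ± 0.093 (adjusted p = 1.33e-05) against control. Sostdc1, a BMP and WNT antagonist that hair follicles also make, fell by 0.86 ± 0.083 in ΔTreg skin (adjusted p = 4.68e-05). The other 3 that fell were Cdh2, Ngfr and Shh.

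Apod, the lipocalin gene of resting and injured nerve, was at 36.3 and 24.7 CPM in control and 68.0, 67.2 and 60.5 CPM in ΔTreg skin, and it rose by 1.09 ± 0.16 (adjusted p = 0.000597). Jun, which directs the repair state of Schwann cells and is also an immediate early gene, and Cdh19 rose as well. Several genes of this list are made outside nerve, and the dermal papilla and immune lists moved in the same libraries, with the values given above. Their part in these changes was not tested. Without ΔETreg mouse 1 the counts were again 3 and 5. In ΔETreg against control 0 of 19 passed edgeR's test, 0 had an unadjusted p under 0.05, and DESeq2 called 0.

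Transcripts of the axon were scarce, and 8 of 20 listed genes passed the filter. In ΔTreg against control 3 rose and 1 fell, where 21.5% of all genes were called. Stmn2, which binds tubulin in growing axons, fell from 3.19 and 4.94 CPM to 0.858, 1.28 and 1.76 CPM (−1.61 ± 0.25, adjusted p = 0.0011). Trpv1, the heat and capsaicin channel, rose in ΔLTreg (1.26 ± 0.22, adjusted p = 0.0113) and in ΔTreg skin (0.98 ± 0.23, adjusted p = 0.0102), where control held 44 and 52 counts and ΔTreg 83 to 120. These calls were lost without control mouse 1 (adjusted p = 0.0752 in ΔLTreg) or control mouse 2 (0.0748 in ΔLTreg skin and 0.0771 in ΔTreg skin). The T cell and macrophage lists rose in ΔTreg skin. In ΔLTreg against control, 0 of 14 T cell and 0 of 10 macrophage genes passed edgeR's test, with list medians of 0.32 and −0.26. The part of these cells in the levels of these axon genes was not tested.

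Of the remaining lists, 1 of 5 tested Merkel cell genes fell (Krt8) in ΔTreg against control, where 9.39% of all genes fell. The list summed to between 37.4 and 44.4 CPM in control and between 23.97 and 32.5 CPM in ΔTreg skin. Endothelial genes rose in 3 and fell in 2 of 8, beside 12.1% and 9.39% of all genes, Pecam1 and Plvap being among the first and Kdr among the second. Adipocyte genes gave 0 calls of 10 in this comparison by edgeR's test, with 0 at an unadjusted p under 0.05 and 2 by DESeq2.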

How the data were processed

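Bulk RNA sequencing covered the whole skin of 11 Foxp3-DTR mice. The authors deposited 1 table of raw read counts per gene, not normalized, made per the submitters' processing notes with Trimmomatic 0.36, STAR 2.5.2b and featureCounts of Subread 1.5.2 on GRCm38. The annotation release and the strand setting are not given in the sources used here. The libraries held 23377571 to 34159435 counts. Of 49315 genes, 174 had no name.

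Counts were tested with edgeR 4.0.16 (limma 3.58.1, R 4.3.3), using filterByExpr (18375 genes), TMM scaling, 4 group means and quasi-likelihood tests over all 11 libraries, with Benjamini-Hochberg adjustment and a threshold of 0.05. The SE was taken from the log2 fold change and F. The comparisons with control share the same 2 control libraries. The script was tested on simulated data. Positions came from GENCODE M21, and promoter windows from RefSeq (GRCm38.p6).

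The members and lists (myelin, Schwann cell regulators, non-myelinating Schwann cells, axon, Merkel cell, melanocyte, skeletal muscle, adipocyte, dermal papilla, T cell, macrophage, immediate early and endothelium) were chosen with earlier results of these data known. Named were the members, Sox10, Foxp3, from each list the 3 genes with the smallest p in ΔTreg against control (for the 4 nerve lists also the 2 smallest in ΔLTreg and ΔETreg against control), and the 3 genes most like each member by Pearson's r among genes with a mean of at least 1 CPM. Some items that this rule names are not reported here. Other genes named were chosen after their values were seen. Alternatives were DESeq2 1.42.0, fits of the groups compared alone, DESeq2's size factors, library size, no filter, at least 10 counts in every library, sex (read from Xist and Ddx3y) as a covariate and leaving out each mouse. Counts over the nerve lists without ΔETreg mouse 1 were added after seeing the data.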

Additional observations from a re-analysis of the deposited data

Results flagged for a closer look

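Direct differences between depleted groups, in which the control libraries have no part in the fold change, passed the test (edgeR, quasi-likelihood, with p-values adjusted by Benjamini-Hochberg) for 4 of the genes. Of all genes, 16.8% were called in ΔTreg against ΔLTreg, 6.38% in ΔETreg against ΔLTreg and 23.1% in ΔTreg against ΔETreg. The values here include ΔETreg mouse 1. S100b was at −0.86 on the log2 scale in ΔTreg against ΔLTreg skin (adjusted p = 0.0194), with all 3 ΔTreg mice below all 3 ΔLTreg mice. Prx was at 0.74 in ΔETreg against ΔLTreg skin (adjusted p = 0.031) and at −1.01 in ΔTreg against ΔETreg skin (adjusted p = 0.00165), without overlap in either. In ΔTreg against ΔETreg skin, Egr2 was at 0.39 (adjusted p = 0.00406) and Ncam1 at −0.81 (adjusted p = 0.0069), again without overlap. ΔETreg skin was harvested at P9 and the others at P13, so that age and the timing of DT cannot be told apart in these last 4 values.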

How the results depend on the processing

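Of 756 values of the 7 genes under the alternatives, 700 kept their direction and side of the threshold, 8 lost a call, 41 gained one and 7 changed sign. For the other nerve genes named here these were 499, 9, 12 and 1 of 521. The number of the 7 genes called in ΔETreg against control was 2 without a filter (0 in the report) and 0 in each fit that left out 1 mouse. In ΔLTreg against control it was 1 with DESeq2's size factors, 3 without a filter, 1 with at least 10 counts in every library and 0 to 1 with a mouse left out (0 in the report). In ΔTreg against control it was 3 with DESeq2, in edgeR on these groups alone and without a filter, and 1 to 3 with a mouse left out (2 in the report). In ΔTreg against ΔLTreg it was 2 without a filter and 0 to 2 with a mouse left out (1 in the report). In ΔETreg against ΔLTreg it was 3 with DESeq2, 0 in edgeR on these groups alone, 7 without a filter, 2 with sex as a covariate and 0 to 2 with a mouse left out (1 in the report). In ΔTreg against ΔETreg it was 4 with DESeq2, 4 with library size, 6 without a filter, 6 with sex as a covariate and 3 to 6 with a mouse left out (3 in the report). The cause was not tested. Over all genes, ΔLTreg against control gave 4.64% called with DESeq2's size factors and 4.92% with 10 counts. ΔTreg against control gave 18.2% with DESeq2, 22.4% in edgeR on these groups and 11.6% without a filter. ΔETreg against ΔLTreg gave 6.83% with DESeq2, 3.14% in edgeR on these groups, 6.08% without a filter and 5.11% with sex. ΔTreg against ΔETreg gave 21.3% with DESeq2, 22.9% with library size, 12.2% without a filter and 21.2% with sex.

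Values that changed sign did so only with a mouse left out, and none of them was called. Against control, the log2 fold change in ΔETreg ranged from −0.33 to 0.47 for S100b, −0.18 to 0 for Ncam1 and −0.51 to 0.04 for Apod. In ΔLTreg it ranged from −0.30 to 0.19 for Mag and in ΔTreg from −0.21 to 0.03 for Mbp and −0.60 to 0.19 for S100b. Over all genes, 35745 were tested without a filter and 18375 with it. Calls were 1790 (5.01%) without it against 836 (4.55%) with it in ΔLTreg against control. They were 2173 (6.08%) against 1173 (6.38%) in ΔETreg against ΔLTreg. In ΔTreg against ΔLTreg 10.4% were called without a filter and 16.8% with it. In ΔETreg against control the calls were 54 (0.151%) against 1 (0.00544%). There, 0 remained with at least 10 counts in every library or with sex as a covariate.

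There were 2 control mice, and leaving out either left 1, which was then assumed to vary like the other groups. No paired analysis was possible because the labels give no shared replicate numbers. Counts of 50 to 175 for Mag and 72 to 263 for S100b limited the precision for these genes. The harvest day of the controls is not in the labels.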
